A study of Mus musculus with 2 samples.

Results

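Macrophages with high levels of complement C1q were examined in the newborn mouse heart. Of 11749 barcodes with at least 500 detected genes (11935 barcodes in all), 143 met the definition, or 1.22% (exact 95% interval 1.03 to 1.43%). They numbered 73 of 5804 barcodes in technical replicate 1 and 70 of 5945 in technical replicate 2. Members were chosen by measured counts: a barcode entered when haemoglobin genes (Hba-a1, Hba-a2, Hbb-bs, Hbb-bt) made up under 0.5% of its counts, Myl2 and Myl7 together under 0.3%, Tyrobp and Fcer1g together had at least 2 counts, and C1qa, C1qb and C1qc together had at least 5 counts. The choice thus used the values of these genes, which are given below as a description only. The single group was unsorted, untreated whole heart of C57BL6+ICR mice at postnatal day 0, whose cells were released by trypsin at 37 °C (30 min in all, collected as 6 fractions, each after 5 min) and loaded on a 10x Chromium 3' version 2 channel with 6000 to 10000 cells as the aim. The study made this data set as a reference map of heart cells from which transcription factors for reprogramming were picked. Both libraries came from 1 biological sample, so no test was possible, and the intervals given cover counting error only. The labels do not say how many hearts were pooled. Y-linked Ddx3y, Eif2s3y, Kdm5d and Uty had 1 count in all members together (Uty), while Xist was counted in 68 and 66 members of the 2 technical replicates.

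Cardiac macrophages live among the muscle cells, clear dying cells and debris, store and return iron, and present antigen to T cells. C1q is the recognition molecule of the classical complement pathway; it is built from 3 chains, and in most tissues macrophages make it rather than the liver. In the mouse heart, macrophages of embryonic origin are known to carry Lyve1, Timd4 and Folr2, while those derived from blood monocytes carry Ccr2 and often class II histocompatibility genes.

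Upstream sequence is shown for 3 markers of these cells and for Prdx1, a peroxide-reducing enzyme that was higher in the members richest in Hmox1. The sequences are from RefSeq (GRCm38.p6), run 5′ to 3′ on the gene's strand, and end before any base that either RefSeq or GENCODE places inside the gene. C1qb (chr4:136886201-136886450, minus strand), C1qc (chr4:136893066-136893164, minus strand) and Pf4 (chr5:90772185-90772434, plus strand) are shown because C1qb and C1qc are 2 of the neighbouring C1q chain genes and Pf4 had the highest level among the given markers outside the choice of members, in each technical replicate. Capitals mark GAGGAA on either strand, the purine-rich core that PU.1 (Spi1), a factor of the myeloid lineage, is known to bind.
C1qb: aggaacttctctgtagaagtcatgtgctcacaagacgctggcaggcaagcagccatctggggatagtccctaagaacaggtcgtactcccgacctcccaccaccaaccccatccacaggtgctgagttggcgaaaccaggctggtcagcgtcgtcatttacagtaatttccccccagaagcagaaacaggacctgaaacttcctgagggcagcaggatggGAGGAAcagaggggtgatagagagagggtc
C1qc: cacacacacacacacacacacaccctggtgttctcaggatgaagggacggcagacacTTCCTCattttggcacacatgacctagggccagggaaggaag
Pf4: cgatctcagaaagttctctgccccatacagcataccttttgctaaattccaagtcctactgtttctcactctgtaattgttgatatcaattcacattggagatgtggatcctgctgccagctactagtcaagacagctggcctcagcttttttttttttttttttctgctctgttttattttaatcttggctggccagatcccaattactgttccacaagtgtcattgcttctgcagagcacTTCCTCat
Each of the 3 held 1 match. GAGGAA occurred on either strand in 23.3% of the 32851 promoters in the table over a 250-base stretch and in 9.91% over the 99-base stretch used for C1qc. Prdx1 (chr4:116685349-116685543, plus strand) is shown with TGANTCA in capitals, the sequence that AP-1 and NF-E2 type factors bind, which reads the same on both strands.
Prdx1: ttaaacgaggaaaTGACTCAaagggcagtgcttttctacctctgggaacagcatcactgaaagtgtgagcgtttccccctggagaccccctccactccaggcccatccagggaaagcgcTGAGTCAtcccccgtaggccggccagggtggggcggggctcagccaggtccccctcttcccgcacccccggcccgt
Prdx1 held 2 matches, and 5.37% of promoters held at least 1 over the same 195-base stretch. These matches are descriptions of the letters and not evidence of binding.

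The 3 C1q chains stood at similar levels. C1qa, the A chain, was at 4281 and 4728 CPM (the share of all counts summed over the members, times 1000000) in technical replicates 1 and 2. C1qb was at 4208 and 3693 CPM, and C1qc at 3328 and 3409 CPM. These levels are per count and not per length. C1qa gave 36.2% and 40.0% of the C1q counts, C1qb 35.6% and 31.2%, and C1qc 28.2% and 28.8%. Every member had a count of C1qb and C1qc, and 2 members had none of C1qa. The summed C1q count of a member ranged from 5 to 186, with a median of 62 (70 and 58.5 in the 2 technical replicates). The lowest members had 9, 10 and 11 counts in technical replicate 1 and 5, 6 and 11 in technical replicate 2, while the highest barcodes below the limit had 0 and 1. No barcode that met the other limits had 2 to 4 C1q counts. Across members, C1qa and C1qc were correlated after thinning to 2000 counts each, with Pearson's r of 0.73 over 71 barcodes and 0.77 over 68. These points share a library, and 4 members with fewer than 2000 counts were left out.

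Members had a median of 5195 counts and 1942 genes, with 3.47% mitochondrial counts, and 4 exceeded 20%. In all, 53 barcode sequences occurred in both libraries; 3 members' barcodes were among them and none was a member in both. A C1q count was also found in 6.65% of 3175 non-muscle barcodes without Tyrobp or Fcer1g counts (myeloid-negative barcodes, at most 3 counts each) and in 12.1% of 7991 barcodes over the Myl2 and Myl7 limit (at most 51 counts each). Among the latter, 6 and 9 barcodes of the 2 technical replicates had at least 5 C1q counts and at least 2 of Tyrobp and Fcer1g, so the 12.1% is not background alone. Single C1q counts outside the members were read as this background. A doublet caller was not run; 12 members had at least 5 counts of a fibroblast or vascular endothelial marker list, and counts without them are given where they differ.

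The 2 given markers that the choice did not use, Pf4 and Ctss, were counted in 133 and 135 of the 143 members, so the label macrophage holds on its given markers. Pf4, a chemokine also called CXCL4, was at 3707 and 4838 CPM in members and at 12.8 CPM in the myeloid-negative barcodes, a ratio of 330 (interval 292 to 374). Ctss, a lysosomal protease, was at 1363 and 1613 CPM against 1.72 CPM, a ratio of 856 (620 to 1216). After each barcode was thinned to 2000 counts, Pf4 was counted in 86.3% of members and 2.24% of myeloid-negative barcodes, and Ctss in 82.7% and 0.481%. Pf4 is also a platelet gene. Of the 8 megakaryocyte and platelet genes, Gp9, Itga2b, Gp6 and Tubb1 had 0 counts in the members and Gp1bb and Treml1 had 1 count each. Ppbp had 80 counts in 21 members. The part of platelet RNA in the Pf4 counts was not tested.

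**Figure D1:**
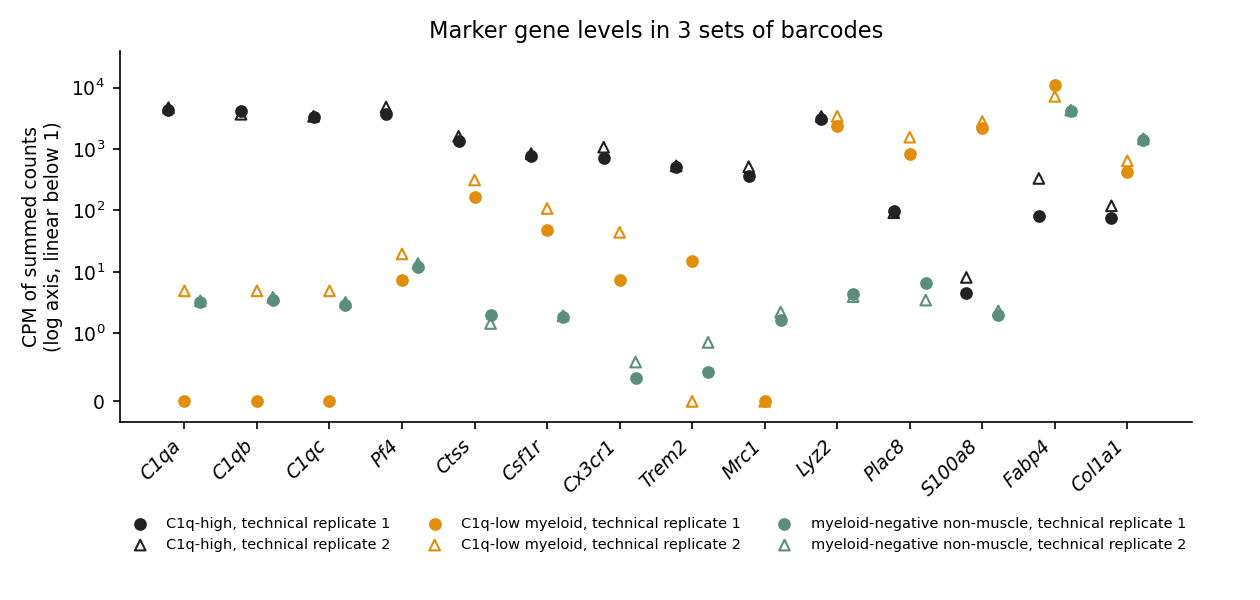
CPM of marker genes in C1q-high macrophages, C1q-low myeloid barcodes and myeloid-negative non-muscle barcodes (vertical log axis, linear below 1); filled circles are technical replicate 1 and open triangles technical replicate 2. The C1q genes, Pf4, Ctss, Csf1r, Cx3cr1, Trem2 and Mrc1 were highest in the C1q-high macrophages in both technical replicates, Lyz2 was near equal in both myeloid sets, and Plac8, S100a8 and Fabp4 were higher in the C1q-low set.

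Against the myeloid-negative barcodes, 538 of 12212 genes (4.41%) were at least 2-fold higher in the members in both technical replicates with at least 20 counts in each. Receptors led the list. Of 23 pan-macrophage receptor genes, 18 had enough counts and 17 passed. Cx3cr1, the fractalkine receptor, was at 726 and 1073 CPM against 0.454 CPM in the myeloid-negative barcodes. Fcgr3, an Fc receptor for IgG, was at 767 and 983 CPM against 0.363 CPM. Csf1r, the receptor for the macrophage growth factor CSF1, was at 767 and 843 CPM against 1.86 CPM, and Adgre1, which encodes F4/80, was at 299 and 338 CPM against 0.272 CPM. C5ar1, the receptor for complement fragment C5a, was at 417 and 467 CPM against 3 counts in all 3175 barcodes, a ratio of 3233 (interval 1097 to 15751). Tlr4, the endotoxin receptor, was the receptor with enough counts that did not pass, at 25.0 and 18.9 CPM against 6.63 CPM. Marco, a scavenger receptor, had 52 counts, of which 1 barcode of technical replicate 2 held 80.8%.

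C1q-low myeloid barcodes, which met the same limits but had at most 1 C1q count, were the nearest set in these libraries. There were 49 (23 and 26), and they were mixed. S100a8, a granulocyte calcium-binding protein, was at 2237 and 2806 CPM in them, and 20 of the 49 had at least 5 endothelial or fibroblast counts. Members are therefore compared with all 49 and then, with the same restriction in both sets, 131 members with the 29 others. Of 2824 genes with at least 20 counts in either set in both technical replicates, 361 (12.8%) were 2-fold higher and 286 (10.1%) 2-fold lower in the members. With the restriction, 240 of 2331 (10.3%) were higher and 37 (1.59%) lower. Many of the lower genes were thus lost with the restriction: vascular endothelial markers went from 9 lower of 9 with enough counts to 0 of 1. The restricted C1q-low set also has fewer counts, so fewer genes could reach the 20 that a lower call needs. The part of this in the fall was not tested. Pan-macrophage receptor genes summed to 969 CPM in the 49 and 3074 CPM in the 29. Ratios of such genes to the 49 are therefore larger than those with the restriction. Vascular endothelial markers summed to 12724 CPM in the 49 and 189 CPM in the 29. The sum of the 49 weighs each barcode by its counts, which ranged from 1867 to 70292 with a median of 5492. Where only 1 ratio to the C1q-low set is given below, it is to all 49, and the ratio with the restriction can differ.

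Among the receptors, 15 of 17 with enough counts were higher in the members than in the 49 and 10 of 16 with the restriction. Trem2, a lipid receptor of phagocytes, was at 506 and 532 CPM in members against 14.8 and 0 CPM. Its ratio was 61.5 (interval 23.8 to 227) and 23.1 with the restriction. Csf1r had a ratio of 10.9 (7.74 to 15.7) and 4.12 with the restriction. C3ar1, the receptor for complement fragment C3a, had 404 counts in members and 1 in the C1q-low set, a ratio of 236 (42.2 to 9364). Ms4a7, a tetraspanning membrane protein of macrophages, had 609 counts and 1 count. Lgals3, a galectin, did not pass, at 1046 and 697 CPM against 311 and 490 CPM. Cfp, which encodes properdin, was at 254 and 230 CPM against 22.2 and 53.9 CPM. The complement genes C1s1, C1ra, C4b, Cfb and Cfd had between 0 and 2 counts in the members.

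Genes of resident tissue macrophages were mostly higher in the members. Of 20 in the list, 11 had enough counts for the comparison with the C1q-low set, 10 were higher and Cd36 was lower; 7 of 9 were higher with the restriction. Selenop, which encodes the selenium carrier selenoprotein P, was the most abundant per count at 1860 and 2323 CPM against 322 and 441 CPM. Mrc1, the mannose receptor CD206, was at 365 and 516 CPM and had 0 counts in the C1q-low set, so that it was at least 68.7-fold higher (at a floor of 3 counts over the set) and at least 19.3-fold with the restriction. Fcrls was at 340 and 430 CPM and also had 0 counts there. Stab1, a scavenger receptor, was at 374 and 454 CPM, a ratio of 13 (7.77 to 23.5). F13a1, the coagulation factor XIII A chain, was at 150 and 222 CPM, and Gas6, the bridging ligand of the TAM receptors that take up dying cells, at 166 and 300 CPM. Cd36, a fatty acid and scavenger receptor, was at 372 and 351 CPM against 1172 and 1112 CPM. Its ratio changed direction with the restriction, from 0.316 to 4.94.

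The rarer genes of that list marked few members. Lyve1, the hyaluronan receptor, was at 38.6 and 130 CPM, Folr2, a folate receptor, at 34.0 and 83.7 CPM, and Cd163, the haptoglobin-haemoglobin receptor, at 40.8 and 29.7 CPM. Timd4, the phosphatidylserine receptor TIM-4, was at 38.6 and 13.5 CPM. The technical replicates differed more than 2-fold for Lyve1, Folr2 and Timd4, each of which rested on 14, 24 and 11 members. Vsig4 was counted in technical replicate 1 only (24 counts in 7 members) and Cd209f in technical replicate 2 only (22 counts in 5 members, 68.2% in 1 of them). Cd209g had 0 counts.

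Monocyte genes went the other way. Of 12 in the list, 4 had enough counts, 3 were lower in the members than in the C1q-low set (Plac8, Ly6c2 and Ifitm6, with and without the restriction) and none was higher. Ly6c2, of the Ly6C antigen of classical monocytes, had 2 counts in the members against 185 and 132 CPM. Plac8 was at 99.8 and 91.9 CPM against 832 and 1562 CPM, and 9 members held all of its counts. Chil3, Fcnb and Ifitm6 had 0 counts in the members. Ccr2, the receptor that brings monocytes out of the marrow, was at 111 and 165 CPM against 152 and 103 CPM. Its ratio to the whole C1q-low set was 1.04, and it was at 0.408 CPM in the myeloid-negative barcodes. In the C1q-low set the summed monocyte list went from 1757 CPM to 5865 CPM with the restriction, against 346 CPM in the restricted members. The Ccr2 ratio can therefore differ with the restriction, and equal levels of Ccr2 in both sets are not shown.

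Lysosomal and protease genes made up 24098 and 26483 CPM in the members, 6244 and 8912 CPM in the C1q-low set and 3383 CPM in the myeloid-negative barcodes. With the restriction they were at 26166 CPM in members and 18997 CPM in the C1q-low set, a smaller difference. Of 29 such genes, 26 had enough counts for the comparison with the C1q-low set; 21 were higher and none lower, and 17 were higher with the restriction. Lgmn, the asparagine-specific protease legumain, was at 1534 and 1675 CPM against 14.8 and 34.3 CPM, a ratio of 69.0 (38.4 to 139), and 70.1 with the restriction. Cathepsin B (Ctsb) was at 2843 and 3074 CPM, a ratio of 10.5, and cathepsin D (Ctsd) at 1196 and 1181 CPM, a ratio of 8.06. Ctsl was at 182 and 211 CPM against 70.2 and 157 CPM and did not pass, but passed with the restriction at a ratio of 3.49. Lyz2, the lysozyme shared by macrophages, monocytes and neutrophils, was at 3099 and 3407 CPM against 2403 and 3428 CPM, a ratio of 1.14. With the restriction its ratio was 0.336, and it was the lysosomal gene then lower in the members.

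Lipid and dead-cell uptake genes were led by Apoe, which carries cholesterol out of cells and was among the most abundant transcripts at 18476 and 20175 CPM. Its ratio to the C1q-low set was 42.1 (36.8 to 48.4) and 14.0 with the restriction. Of 25 efferocytosis and scavenging genes, 9 of the 14 with enough counts were higher, and 8 of 13 with the restriction. Dab2, an adaptor for endocytosis, was at 1012 and 1048 CPM against 40.7 and 39.2 CPM, a ratio of 25.7. Msr1, scavenger receptor A, was at 182 and 176 CPM, a ratio of 17.0. Mertk, a TAM receptor for dying cells, had too few counts to be called, at 49.9 and 45.9 CPM. Mfge8, another bridging protein, was lower, at 34.0 and 16.2 CPM against 115 and 162 CPM, while Tyro3 and Stab2 had 0 counts.

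Iron and haem genes stood at 37806 and 33437 CPM in all, against 4041 and 5788 CPM in the C1q-low set and 4059 CPM in the myeloid-negative barcodes. With the restriction the list was at 38105 CPM in members and 7339 CPM in the C1q-low set. Of 15 genes, the 8 with enough counts were all higher in the members, with and without the restriction. Ftl1 and Fth1, the light and heavy chains of the iron store ferritin, gave most of this: Ftl1 was at 23009 and 20850 CPM and Fth1 at 12047 and 9963 CPM. Hmox1, haem oxygenase 1, which opens the haem ring and frees its iron, was at 1130 and 1167 CPM against 18.5 and 53.9 CPM, a ratio of 34.0 (20.8 to 59.8). Slc40a1, the iron exporter ferroportin, was at 581 and 478 CPM against 14.8 and 4.90 CPM, a ratio of 50.7 (21.6 to 157). Blvrb, a biliverdin reductase, was at 449 and 432 CPM, Slc48a1, a haem transporter of the phagolysosome, at 206 and 227 CPM, and Slc11a1 (NRAMP1), a phagosomal metal transporter, at 154 and 143 CPM. Tfrc, the receptor for transferrin-bound iron, was at 13.6 and 5.40 CPM, with 8 counts.

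Of 16 chemokine genes, 10 had enough counts; 9 were higher than in the C1q-low set and none lower, and with the restriction 5 of 9 were higher and Ccl6 was lower. After Pf4, Cxcl16, a membrane-bound chemokine that also binds oxidised lipid, was at 467 and 378 CPM against 18.5 and 9.79 CPM. Ccl12, a ligand of CCR2, was at 324 and 424 CPM and had 0 counts in the C1q-low set, at least 58.5-fold higher. Ccl2 and Ccl7, also CCR2 ligands, were at 261 and 262 CPM and at 170 and 116 CPM. Cxcl2, a neutrophil attractant, had 48 counts in 8 members. Of the cytokines, Tgfb1 was the most abundant at 279 and 240 CPM against 177 and 211 CPM. Il6, Il10, Il12b, Lif and Tnfsf13 had 0 counts, Tnf 12, and Il1b, which was lower than in the C1q-low set, 26. Of the growth factors, Igf1 was at 370 and 327 CPM against 107 and 97.9 CPM, a ratio of 3.39 (2.50 to 4.69), and at 157 CPM in the myeloid-negative barcodes. Vegfa had 12 counts, Hbegf 2 and Areg 0.

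Among 31 transcription factor genes, 15 had enough counts, 9 were higher than in the C1q-low set and 3 lower (Klf2, Klf4 and Id3); with the restriction 3 of 13 were higher, among them Maf and Zeb2, and Cebpb was lower. Maf, a factor of tissue macrophages, was at 563 and 686 CPM against 14.8 and 19.6 CPM, a ratio of 36.7 (18.5 to 85.6) and 14.0 with the restriction. Spi1 (PU.1) was at 569 and 481 CPM, a ratio of 4.12, and of 1.45 with the restriction. Irf8, a factor of monocytes and macrophages, was at 218 and 211 CPM. Spic, the factor of splenic red pulp macrophages, had 14 counts in 7 members. Cebpb was at 397 and 346 CPM against 214 and 465 CPM, a ratio of 1.16 and 0.375 with the restriction.

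Class I antigen presentation genes were higher than in the myeloid-negative barcodes for 6 of 8 genes with enough counts, B2m at 3868 and 4468 CPM against 486 CPM. Against the C1q-low set 3 of 6 passed, and 0 of 6 with the restriction. Of 18 interferon response genes, 6 of 8 with enough counts were higher than in the C1q-low set and 2 of 8 with the restriction (Bst2 and Rtp4); Ifitm3 was lower in both. None of 7 heat shock genes with enough counts was higher or lower than in the C1q-low set. Of 17 immediate early genes, which the warm digestion of tissue is known to induce, 11 had enough counts, 1 was higher and 2 were lower, and with the restriction none of 10 was higher or lower.

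Genes often used to mark microglia, the brain's macrophages, were present. P2ry12, an ADP receptor, was at 56.7 and 72.9 CPM in 41 members, Tmem119 at 54.4 and 111 CPM in 38 members, and Gpr34 at 107 and 157 CPM in 66. Against the C1q-low set 4 of the 4 with enough counts were higher, and 2 of 4 with the restriction. Tmem119 was also at 30.1 CPM in the myeloid-negative barcodes. Sall1, the microglial transcription factor, had 0 counts in the members.

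Other cell types' markers were low. Of 13 neutrophil genes, Retnlg, Camp, Ngp, Ltf, Mpo, Elane, Cxcr2, Mmp8 and Lcn2 had 0 counts, and the list was at 25.0 and 43.2 CPM against 3364 and 4985 CPM in the C1q-low set. Of 9 dendritic cell genes, Flt3, Xcr1, Clec9a, Cd209a and Ccr7 had 0 counts. Nkg7, Klrb1c, Ncr1, Gzma and Klrd1 of the T and NK list, 7 of 9 mast cell and basophil genes and all 6 glial and neuronal genes also had 0. Of the B cell genes, Cd79a, Ms4a1, Vpreb3 and Pax5 had 0 counts, while Cd79b had 70 counts in 49 members. The 10 cardiomyocyte genes were at 1677 and 2145 CPM, against 3250 CPM in the myeloid-negative barcodes and 30287 CPM in the muscle barcodes, a level that the Myl2 and Myl7 limit bounds. The fibroblast list was at 572 and 675 CPM against 8973 CPM in the myeloid-negative barcodes. The part of free RNA or doublets in these counts was not tested.

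Apoe and the ferritin genes were among those with the largest spread from member to member, on a measure that also tends to rise with a gene's level. After thinning, 78 of 2381 genes with a mean of at least 0.1 counts had a Fano factor (variance over mean, near 1 for counting noise alone) of 2 or more in both technical replicates, and the median over the genes was 0.955. Apoe was highest, with Fano factors of 27.0 and 52.8, followed by Ftl1 with 25.0 and 25.6, Actb with 21.4 and 30.2, Hmox1 with 17.6 and 25.7 and Fth1 with 29.0 and 12.4. Plac8, Cd74, Lyz2 and Pf4 were also among the 15 highest. The middle 80% of members had between 234 and 2098 CPM of Cx3cr1, and 134 of 143 had a count. The same range was 6419 to 37320 CPM for Ftl1, 2716 to 22534 CPM for Fth1 and 3855 to 46722 CPM for Apoe. By this range Cx3cr1 was not more even than the ferritin genes. For the summed C1q genes, whose low end the choice of members cuts off, it was 4250 to 22511 CPM. Over its full range Apoe, counted in all members, went from 419 to 165002 CPM with a median of 17765. Pf4 ranged from 0 to 69156 CPM with a median of 3449, and 10 members lacked it.

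**Figure D2:**
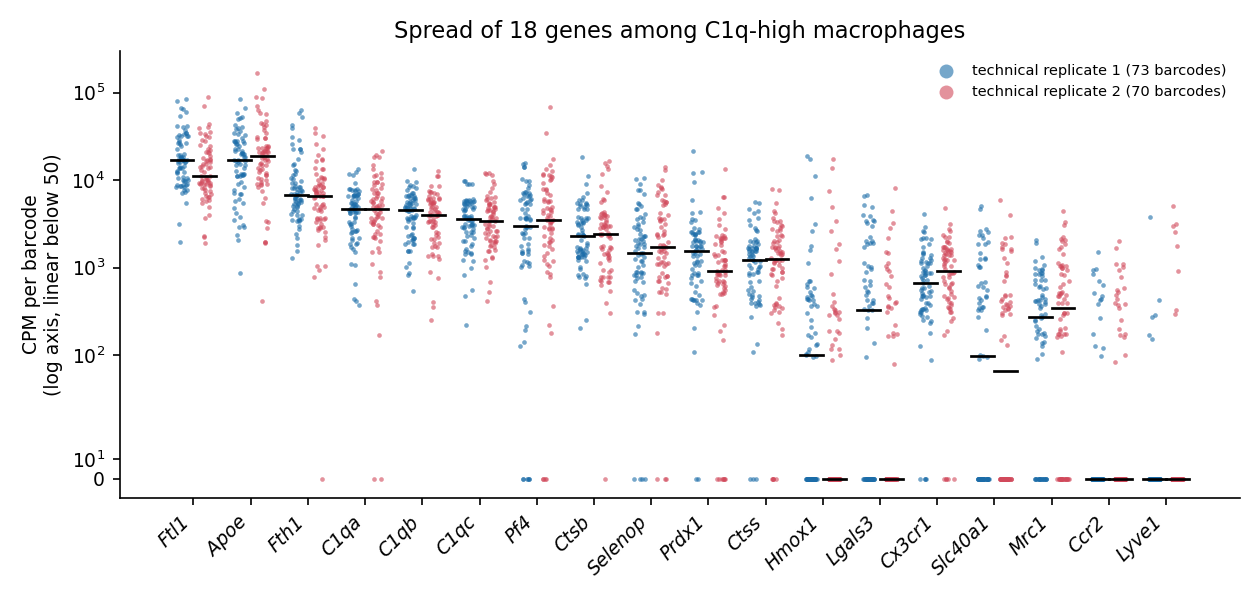
CPM per barcode of 18 genes in the 143 C1q-high macrophages (vertical log axis, linear below 50); each point is 1 barcode, blue for technical replicate 1 and red for technical replicate 2, and black bars are medians. Apoe, Ftl1 and Fth1 spread over more than a factor of 10, while Hmox1, Lgals3, Slc40a1, Ccr2 and Lyve1 had many barcodes at 0.

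Hmox1 counts were concentrated in a small number of members. It had 0 counts in 74 members, while 18 members (9 in each technical replicate) had 1000 CPM or more. This limit was set after the values were seen, so what follows describes these 18. They ranged from 1121 to 19023 CPM with a median of 3263, and they held 845 of the 930 Hmox1 counts (90.9%). The next member had 850 CPM, so no clear gap lies at the limit. Some of the 18 rest on few counts, the lowest on 3 and the highest on 156. Their median total count was 5909 and that of the other 125 was 5059, and their median C1q counts were 53.5 and 63. Ftl1 had a median of 59626 CPM in the 9 and 15706 in the others of technical replicate 1, and of 31322 and 9954 CPM in technical replicate 2. The sets overlapped: the lowest Ftl1 among the 18 was 17728 CPM and the highest among the others 40947 CPM. Haemoglobin genes, which the definition of members limits, were at 843 CPM in the 18 and 981 CPM in the others.

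**Figure D3:**
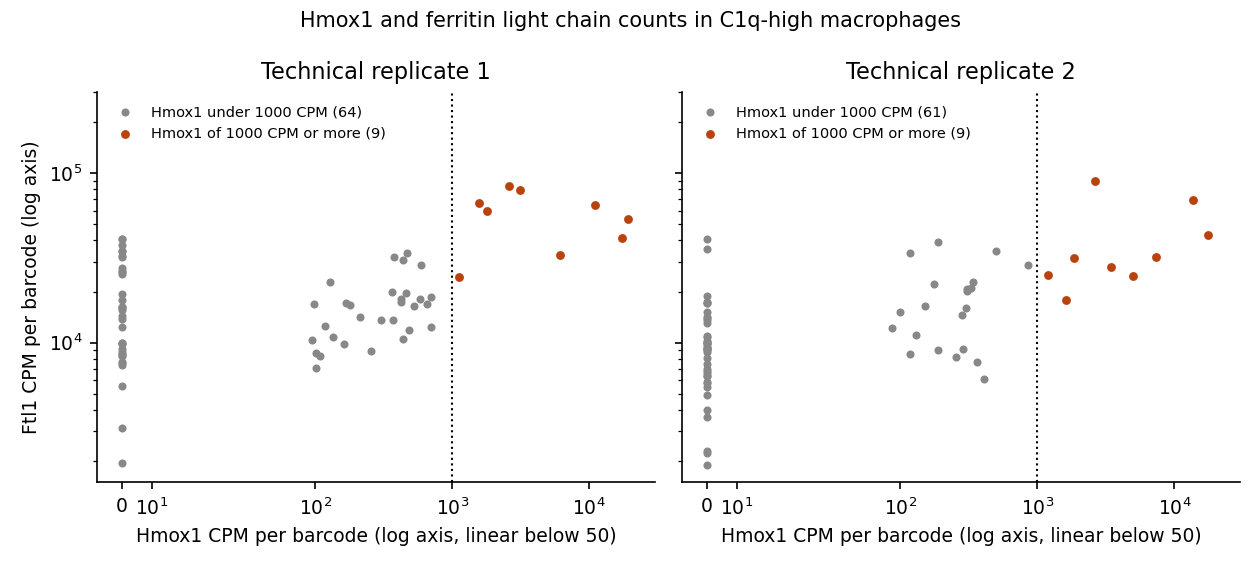
Hmox1 CPM (horizontal log axis, linear below 50) against Ftl1 CPM (vertical log axis) in each C1q-high macrophage, by technical replicate; the dotted line marks 1000 CPM. The 9 Hmox1-rich barcodes of each technical replicate, in red-brown, lie between 17728 and 89528 CPM of Ftl1, and none is at the low end.

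Of 2244 genes with enough counts, 25 (1.11%) were at least 2-fold higher in the 18 and 102 (4.55%) at least 2-fold lower; a gene needed 20 counts in the 9 barcodes of a technical replicate to be called higher. Gclm, a subunit of the enzyme that limits glutathione synthesis, was at 920 and 610 CPM against 36.5 and 28.8 CPM, a ratio of 23.2 (14.5 to 38.4), and was counted in 11 of the 18 and 22 of the 125. Clec4d, a C-type lectin receptor, had a ratio of 21.4 (11.4 to 43.2) and Clec4n, or Dectin-2, one of 6.52. Ferroportin (Slc40a1) was counted in all 18 and in 56 of the 125, at a ratio of 5.91 (4.87 to 7.17). Prdx1 was at 9964 and 5522 CPM against 1657 and 1285 CPM, a ratio of 5.20 (4.75 to 5.69). Its counts were uneven: 8 of the 18 held 821 of 891, and the other 10 held 70. Per barcode, Prdx1 had a median of 3334 CPM in the 18 (1047 to 21226) and of 1049 CPM in the others (0 to 6393), so the sets overlapped. The haem transporter gene Slc48a1 had a ratio of 4.43, Fth1 4.09, Ftl1 3.61 and Blvrb 2.61. Not all iron and haem genes passed. Slc11a1 (ratio 2.56) and Blvra (1.47, interval 0.843 to 2.46) had enough counts but were not called, and Tfrc had 1 count in the 18. Igf1 was at 1042 and 784 CPM against 269 and 243 CPM, a ratio of 3.55 (2.76 to 4.54), and Cd36 had a ratio of 3.78. Without the barcode that held most counts of each gene, the ratios were 19.5 for Gclm, 5.22 for Slc40a1, 4.36 for Prdx1, 3.59 for Fth1, 3.30 for Ftl1 and 3.46 for Igf1. Lower in the 18 were Itgb5, an integrin chain (2 counts against 134, a ratio of 0.0903, interval 0.0108 to 0.333), Id3, Cd74 and Hmgb2. Apoe, Mrc1 and Cx3cr1 did not differ by 2-fold, with ratios of 0.868, 0.887 and 0.836. Of the 18, 1 had at least 5 endothelial or fibroblast counts. Some reads of Ftl1 could belong to its pseudogene Ftl1-ps1, whose ratio was 3.72. Gclm, Clec4d, Prdx1, Blvra, Ftl1-ps1, Itgb5 and Hmgb2 are named here after their values were seen.

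**Figure D4:**
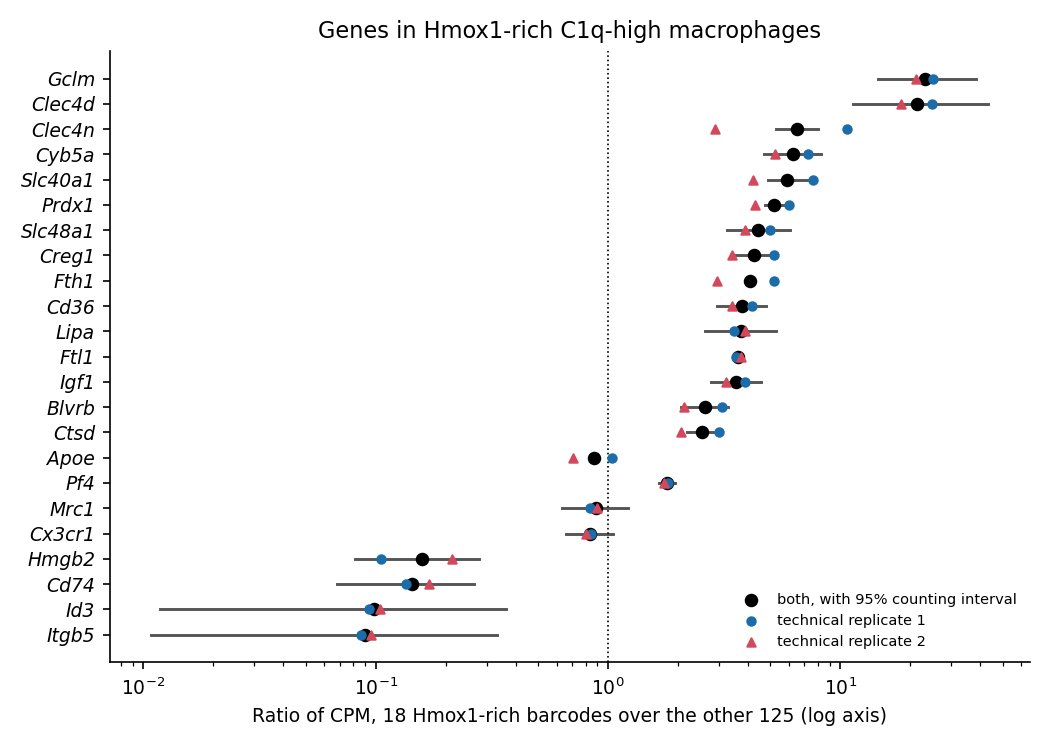
Ratio of CPM in the 18 Hmox1-rich members to that in the other 125 (horizontal log axis); black points are both technical replicates with the 95% counting interval, and blue circles and red triangles are technical replicates 1 and 2. Gclm and Clec4d have ratios above 20, and Apoe, Mrc1 and Cx3cr1 lie near 1. The iron genes shown (Slc40a1, Slc48a1, Fth1, Ftl1 and Blvrb), all of which passed, lie between 2.61 and 5.91.

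Ftl1 and Fth1 varied together across members, with Pearson's r of 0.87 and 0.78 in the 2 technical replicates. Hmox1 and Ftl1 had r of 0.50 and 0.54, and Hmox1 and Slc40a1 0.49 and 0.26 (Spearman's rho 0.36 and 0.37). Hmox1 and Prdx1 had r of 0.81 and 0.43, with lower rank correlations (rho 0.40 and 0.21). Hmox1 and Apoe had r of 0.11 and -0.10. Ctsb and Ctsd had r of 0.79 and 0.71, and Pf4 and Mrc1 0.38 and 0.45.

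Lyve1 was not counted in the members with Ccr2 or class II. Most of the few members with class II had Ccr2, but most members with Ccr2 did not reach 3 class II counts. Lyve1 was counted in 14 members (6 and 8), with 1 to 13 counts each. All 14 had Mrc1 and none had Ccr2 or a count of H2-Aa, H2-Ab1 or H2-Eb1. Over all 143 members, 103 had Mrc1, 39 had Ccr2 and 10 had a count of these 3 class II genes. With class II so rare, its absence from 14 members tells little. The 14 were also shallower, with a median of 3363 counts against 5329 in the others. Ccr2 was counted in 39 members (16 and 23). Class II reached 3 counts in 7 members (4 and 3), and 6 of these 7 had Ccr2. Of the 39 with Ccr2, 4 had a count of Lyve1, Timd4 or Folr2. With 1 to a few counts a gene, absence in a barcode is not shown, and 72 members had none of these genes: Lyve1, Timd4, Folr2, Ccr2 or class II of 3 or more counts. After thinning, Lyve1 was counted in 9.35% of members (interval 5.07 to 15.5%), 1.92% of myeloid-negative barcodes and 0.404% of muscle barcodes, and Ccr2 in 20.1%, 0.0961% and 0.242%.

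**Figure D5:**
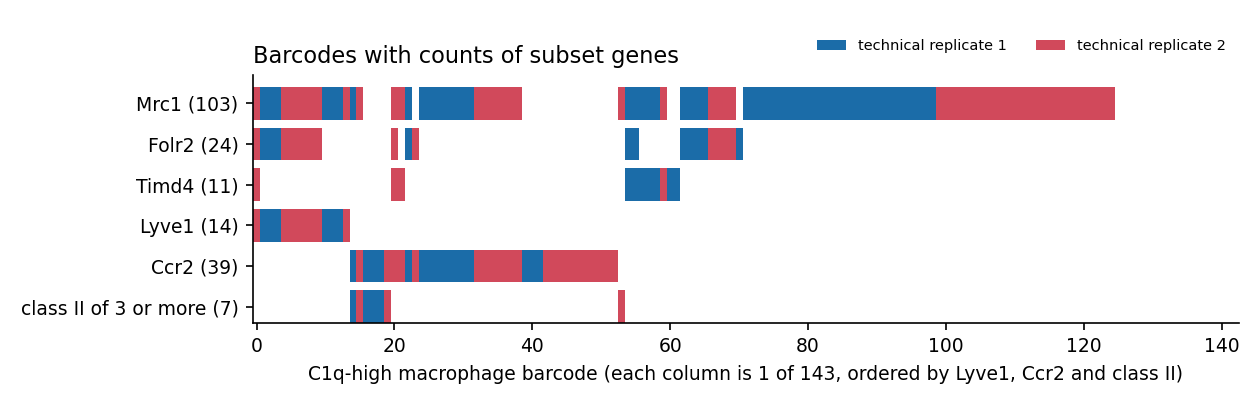
Members with a count of Mrc1, Folr2, Timd4, Lyve1 or Ccr2, or with 3 or more class II counts (rows); each column is 1 of the 143 members, coloured by technical replicate and ordered by Lyve1, Ccr2 and class II. No column has both Lyve1 and Ccr2, and 6 of the 7 columns with class II also have Ccr2.

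In the 14 members with Lyve1, 8 of 2414 genes (0.331%) were 2-fold higher and 67 (2.78%) lower than in the other 129. The 8 were Mrc1, Igfbp4, Stab1, Fcgrt, Snx2, Pf4, Dab2 and Marcksl1. A higher call needed the minimum count within the 14, and a lower call needed it within the other 129. Fewer genes could thus be called higher than lower, so the numbers of higher and lower genes cannot be compared. Mrc1 was at 830 and 2166 CPM against 327 and 385 CPM, a ratio of 4.04 (3.13 to 5.16). Igfbp4, which binds insulin-like growth factors, had a ratio of 3.86, Stab1 3.64 and Pf4 2.62; Fcgrt, the neonatal Fc receptor, had 3.08. Lgals3 had 0 counts in the 14 against 719 in the others. Hmox1 was at 178 and 330 CPM against 1209 and 1234 CPM. Of the 18 Hmox1-rich members, which held most of its counts, 1 had Lyve1, so this difference depends on few barcodes. The 14 had a median of 3363 counts and the others 5329, and 2 of the 14 had at least 5 endothelial or fibroblast counts. With such members left out, Marcksl1 had a ratio of 1.80, and the other 7 genes had ratios from 2.67 to 4.84. Whether depth has a part in these differences was not tested. Igfbp4, Fcgrt, Snx2 and Marcksl1 were named after their values were seen.

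In the 39 members with Ccr2, 1 of 1764 genes (0.0567%) was 2-fold higher and 21 (1.19%) lower. The 1 was Cd74, the invariant chain of class II molecules, at 2624 and 705 CPM against 100 and 180 CPM, a ratio of 11.7 (9.11 to 15.1). Without the barcode with most Cd74 counts (176) the ratio was 6.09. Cd74 was counted in 20 of the 39 and in 31 of the 104. The 6 of the 39 that reached 3 class II counts had 21, 31, 17, 176, 16 and 26 Cd74 counts, so the ratio rests largely on these 6. Since a higher call needed the minimum count within the 39, the smaller set, fewer genes could be called higher than lower. Lower were Fcna (0.157), Gas6 (0.163), Ltc4s (0.179), Hmox1 (0.189), Slc40a1 (0.297) and F13a1 (0.354), given as ratios. Of these, Fcna, Gas6, Ltc4s and F13a1 are on the resident macrophage list of 20 genes. Levels of the other genes of that list are not given for this split, so these do not describe the list as a whole. Ltc4s makes leukotriene C4. The summed ratio of Hmox1 depends on few barcodes: 18 members held 845 of its 930 counts, and 3 of these 18 had Ccr2. The total count was similar, with medians of 5318 in the 39 and 4979 in the 104.

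Class II counts came from few members. H2-Aa, H2-Ab1 and H2-Eb1 had 269 counts in all, 195 of them in 1 barcode of technical replicate 1 (72.5%), which also had 7 Ccr2 and 22 C1q counts. The other 6 members with 3 or more had 6 to 17. Of 2499 genes, 2 (0.08%) were 2-fold higher in the 7 members, Cd74 and Cd52, and 37 (1.48%) lower. A higher call needed the minimum count within the 7, and a lower call needed it within the other 136. Fewer genes could thus be called higher than lower, so the numbers of higher and lower genes cannot be compared. Cd52, a surface antigen of leukocytes named after its values were seen, had a ratio of 2.74. Among the lower were Pf4 at 272 and 1654 CPM against 3826 and 4985 CPM, and Igf1, Selenop and Hmox1. None of the 18 Hmox1-rich members was among these 7, so the Hmox1 difference depends on few barcodes. Ciita, the class II master regulator, had 0 counts in the members. The 7 had a median of 2871 counts. Cardiomyocyte markers were at 3931 CPM in them and 1809 CPM in the other 136, with 53 and 39 counts in 2 of the 7, and the part of this in the differences was not tested.

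Cell cycle genes were counted in part of the members, at a share that depended on the number of counts asked for. After thinning to 2000 counts, 36.0% of 139 members had 3 or more counts of a 24-gene S phase list, 20.1% had 3 or more of a 23-gene G2 and M phase list, and 43.2% (interval 34.8 to 51.8%) had either, at 40.8% and 45.6% in the 2 technical replicates. The last share was 44.7% in C1q-low, 39.0% in myeloid-negative and 19.1% in muscle barcodes. In members it was 28.1% at 5 or more counts of a list and 58.7% unthinned. At 10 or more G2 and M counts the shares were 8.63% of members and 12.2% of myeloid-negative barcodes. In the 60 members with either list at 3 or more, 45 of 1497 genes (3.01%) were 2-fold higher and 17 (1.14%) lower, phase list genes aside. Pclaf, a partner of the replication clamp, had 194 counts against 5, a ratio of 37.1 (15.6 to 116). Stmn1 and Hmgb2 had ratios of 5.53 and 5.51. Lower were Plac8 (2 counts against 76, a ratio of 0.0252, interval 0.00300 to 0.0942), Fcna, F13a1 (0.377) and Klf2 (0.231). Of the 76 Plac8 counts, 24 and 22 lay in 1 barcode of each technical replicate. These barcodes had 11 and 6 C1q counts and no Pf4 count. Col1a1, Col1a2 and Col3a1 had ratios of 0.0971, 0.0986 and 0.121, but fibroblast markers were at 144 CPM in the 60 and 1118 CPM in the others, where 1 member had 186 such counts. Without members with 5 or more endothelial or fibroblast counts, these 3 ratios were 0.445, 0.890 and 0.890, each with an interval that includes 1, while those of Pclaf, Stmn1, Hmgb2, Plac8, Fcna, F13a1 and Klf2 stayed past 2-fold over both technical replicates together. The 60 had a median of 6408 counts and the other 79 had 4342; the part of depth and of free RNA in these differences was not tested. Genes in this paragraph other than F13a1, Fcna, Plac8 and Klf2 are named after their values were seen.

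A further 20 barcodes had 5 or more C1q counts and 2 or more of Tyrobp and Fcer1g but exceeded the haemoglobin limit (17), the Myl2 and Myl7 limit (15) or both (12). They had a median of 14 C1q counts, 3282 total counts and 22.4% mitochondrial counts. Pf4 was at 2359 CPM in them against 4223 CPM in the members, Cx3cr1 at 444 against 884 CPM, and Hmox1 at 315 against 1147 CPM. Timd4 and Plac8 had 0 counts in these barcodes.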

How the data were processed

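Single-cell RNA was measured in 2 libraries, technical replicates of 1 biological sample; the second matrix carries another internal identifier than its record, and each was taken as deposited. The authors deposited whole-number counts per gene and barcode, not normalized. Cell Ranger 2.1.0 and the mouse build mm10 are listed in the submitters' processing notes. Whether a count is a unique molecule or a read is not given in the sources used here. Of 27999 features, 27645 had a symbol in GENCODE vM21 (GRCm38). Here, counts were summed over barcodes per technical replicate and scaled to CPM with Python 3.11.15, numpy 2.4.6, scipy 1.17.1 and pandas 2.3.3; figures used matplotlib 3.10.9. Depth was 1850 to 76750 counts per barcode of 500 genes or more, and 34302222 and 33380064 counts in the 2 libraries.

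With 1 biological sample no test was run. Genes were called by size: 2-fold and at least 20 counts in the higher set in both technical replicates. Genes used to choose a set were never called. Intervals are exact Poisson, Clopper-Pearson or conditional binomial at 95%. Bounds against 0 use a floor of 3 counts. Shares and Fano factors use barcodes thinned to 2000 counts (seed 0), leaving out shallower ones: 4 members, 2 C1q-low, 54 myeloid-negative and 560 muscle barcodes. Members, the 37 gene lists and the splits were chosen with earlier results of these data known. Named were given markers, members of the resident, monocyte, class II and transcription factor lists, up to 5 genes by highest ratio, lowest ratio and level for each other list, the 15 leading genes of each comparison and of the spread, and any further gene was named after its values were seen.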

Additional observations from a re-analysis of the deposited data

How the results depend on the processing

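No paired analysis was possible because there is 1 group of 2 technical replicates and no test. The number of members was 140 with a C1q minimum of 10 counts, the 143 of the report with a minimum of 2, and 70 to 73 with 1 technical replicate. Their share was 1.45% with at least 1000 genes and 3.34% when barcodes over 20% mitochondrial counts were left out, which removes fewer members than other barcodes. Genes higher than in the C1q-low set numbered 361 in the report, 240 without barcodes with 5 or more endothelial or fibroblast counts, 180 at 50 counts, 633 with no minimum, 226 at 3-fold, and 532 to 674 with 1 technical replicate. Genes lower numbered 286, 37 under the same restriction, 99 at 50 counts, 1232 with no minimum, 146 when C1q-low barcodes had at least 5 Tyrobp and Fcer1g counts, and 405 to 593 with 1 technical replicate. Genes higher than in myeloid-negative barcodes numbered 538, 274 at 50 counts, 1316 with no minimum, and 661 to 750 with 1 technical replicate. Members with phase counts were 57.1% thinned to 3000 counts, 58.7% without thinning and 28.1% at 5 counts. Genes with a Fano factor of 2 or more were 78, 506 without thinning and 146 to 156 with 1 technical replicate. The Lyve1 share, 9.35%, was 5.26% with a haemoglobin limit of 2% and a Myl2 and Myl7 limit of 1%, where the thinning was also drawn anew; unthinned, 14 of 143 and 14 of 157 barcodes had a count. It stayed within its counting interval under each alternative run, as did the share with Hmox1 of 1000 CPM or more, whose alternatives were added after seeing the data. Of 387 values of 43 named gene levels, 312 stayed within the counting interval. Leaving out a technical replicate moved Lyve1, Folr2, Timd4 and H2-Aa by over 1.5 times, to 38.6 or 130 CPM for Lyve1.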
